A study of Mus musculus with 8 samples.

Results

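The comparison set 4 libraries of mouse embryonic stem cells that lack a working Microprocessor against 4 libraries of cells that keep one, and asked which transcripts move with the Microprocessor itself. The members were chosen by genotype label, and they are all 8 libraries of the series. The deficient class held 2 libraries of Dgcr8 KO and 2 of Drosha KO. The intact class held 2 libraries of wild type (WT) and 2 of Ago1_2 KO, which is labelled as a knockout of Ago1 and Ago2 together. The cells were the E14 line of the 129/Ola background, derived from blastocysts and grown without serum in 2i, that is N2B27 with LIF, CHIR99021 (a GSK3 inhibitor) and PD0325901 (a MEK inhibitor). All 4 genotypes shared this medium, and polyadenylated RNA was sequenced from each. Nothing in the labels says whether the libraries of 1 genotype are separate cultures, clones or only separate preparations. The p-values therefore cover the spread between these libraries, which may be technical, and each class holds only 2 genotypes.

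MicroRNAs are cut out of long transcripts by the Microprocessor, in which DGCR8 binds the hairpin of a primary miRNA and DROSHA cuts its stem. DICER then trims the freed hairpin, and an Argonaute protein carries the mature strand to mRNAs that match its seed. A knockout of Argonaute acts after both cuts, so the intact class includes cells with a changed miRNA pathway in which the first cut can still take place. Hairpins also lie in some mRNAs, and the known case is the Dgcr8 mRNA, which carries hairpins that the Microprocessor cuts.

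Genes annotated as miRNA hairpins led the rise, and 4 of them are shown here by sequence because their reads were counted within these short stretches. Mir1306, which did not pass the test, is shown beside them because it lies in an exon of Dgcr8. It had no reads in Dgcr8 KO but was higher in Drosha KO than in the intact libraries. The hairpins are RefSeq sequences on GRCm38.p6, written 5′ to 3′ with the annotated mature strands in capitals. Mir20a lies on chromosome 14 (115044157 to 115044263, plus strand), in an exon of Mir17hg; Mir27b (63300712 to 63300784) and Mir24-1 (63301208 to 63301275) lie on the plus strand of chromosome 13; Mir292 lies on the plus strand of chromosome 7 (3219189 to 3219270); and Mir1306 lies on the minus strand of chromosome 16 (18284239 to 18284317), in an exon of Dgcr8.
Mir20a: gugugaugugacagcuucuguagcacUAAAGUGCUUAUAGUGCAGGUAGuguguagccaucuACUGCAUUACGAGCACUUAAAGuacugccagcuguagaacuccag
Mir27b: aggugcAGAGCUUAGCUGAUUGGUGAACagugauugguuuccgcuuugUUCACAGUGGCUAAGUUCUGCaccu
Mir24-1: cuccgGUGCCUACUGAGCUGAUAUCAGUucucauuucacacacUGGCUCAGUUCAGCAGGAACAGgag
Mir292: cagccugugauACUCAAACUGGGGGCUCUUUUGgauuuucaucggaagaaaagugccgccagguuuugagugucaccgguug
Mir1306: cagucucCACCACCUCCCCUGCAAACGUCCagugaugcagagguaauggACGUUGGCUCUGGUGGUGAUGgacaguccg

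Some of the raised hairpins share a seed. All 33 raised miRNA genes matched RefSeq, with 61 mature sequences and 42 different seeds (bases 2 to 8), of which 12 seeds occurred in 2 or more of the genes. Of these, 6 were shared within 1 genomic cluster and 6 between clusters, in each case those of the miR-17 to 92 family on chromosomes 14 and X. For 5 of the raised genes, among them Mir23b and Mir292, the RefSeq sequences used held only 1 mature strand. The seed counts therefore cover the listed strands only and may miss shared seeds. The sequences below are grouped by seed, which is in capitals: the miR-17 group, the miR-291a group of the embryonic stem cell cluster, the miR-92 group and the let-7 group.
mmu-miR-17-5p: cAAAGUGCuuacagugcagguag
mmu-miR-20a-5p: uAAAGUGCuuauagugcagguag
mmu-miR-20b-5p: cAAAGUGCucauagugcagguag
mmu-miR-106a-5p: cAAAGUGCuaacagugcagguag
mmu-miR-291a-3p: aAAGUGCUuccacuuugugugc
mmu-miR-294-3p: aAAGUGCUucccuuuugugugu
mmu-miR-295-3p: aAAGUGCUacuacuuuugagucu
mmu-miR-92a-3p: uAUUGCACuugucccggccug
mmu-miR-363-3p: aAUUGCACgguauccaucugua
mmu-let-7a-5p: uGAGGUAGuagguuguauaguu
mmu-let-7f-5p: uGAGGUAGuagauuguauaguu

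Total counts were 13229771 to 26333907 per library, and 16388 genes passed the filter on low counts. All 10 embryonic stem cell markers were detected, with summed levels of 6770 to 9650 CPM (counts scaled to a common library size) in the deficient libraries and 8470 to 10000 in the intact ones. Markers of other cells were low in both classes: fibroblast feeder markers summed to 6.8 to 14.8 CPM against 11.5 to 16, primitive endoderm markers to 5.78 to 10.6 against 4.57 to 9.55, and trophectoderm markers to 11.7 to 28.1 against 17.7 to 36.6. Bulk RNA cannot tell fewer expressing cells from less RNA per cell.

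The targeted genes were read first. Where 8 values are given without genotype, the 4 deficient libraries come first (Dgcr8 KO, then Drosha KO), and after "against" the 4 intact ones (Ago1_2 KO, then WT). Drosha, the nuclease, stood at 254, 282, 51.2 and 82.4 CPM against 339, 362, 278 and 266. Only the libraries labelled Drosha KO were low, and its class difference of -1.20 ± 0.17 (log2, SE; edgeR adjusted p 0.0083) came with overlapping classes. Dgcr8, the RNA-binding partner, stood at 392, 370, 304 and 234 CPM against 91.2, 82.9, 78.1 and 70.5. All 4 deficient libraries lay above all 4 intact ones, also in the genotype in which Dgcr8 itself was targeted. The means were 325 ± 71.1 CPM (SD, n = 4) and 80.7 ± 8.67 (n = 4), a log2 difference of 1.99 ± 0.14 (SE; edgeR adjusted p 0.00023). Mir1306, the hairpin in a Dgcr8 exon, had 0 counts in both Dgcr8 KO libraries. Drosha KO held 9.65 and 9.54 CPM of it, and the intact libraries 2.43, 2.62, 2.03 and 0.677. In the Dgcr8 KO cells, then, the gene gave more reads than in WT but none in that hairpin. Ago2, the Argonaute that can cut its target, stood at 522, 396, 1070 and 809 CPM against 216, 195, 464 and 227. Its difference of 1.30 ± 0.23 (edgeR adjusted p 0.027) passed the test, and the classes overlapped. Ago1 did not pass (0.96 ± 0.26, edgeR adjusted p 0.11), with 151 to 296 CPM in the deficient libraries, 160 and 87.85 in Ago1_2 KO and 106 and 63.3 in WT. Neither gene passed between Ago1_2 KO and WT (log2 0.56 for Ago1 and -0.75 for Ago2, edgeR adjusted p 0.30 and 0.13), so counts over the whole gene neither bear out nor contradict that label.

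**Figure D1:**
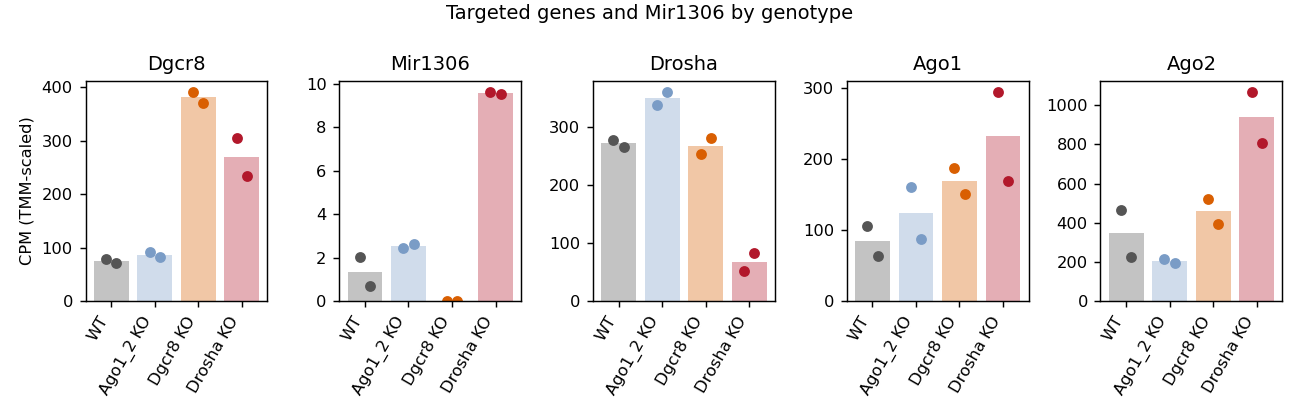
CPM (y axis, TMM-scaled) of Dgcr8, Mir1306, Drosha, Ago1 and Ago2 in each genotype; points are libraries and bars are the mean of 2. Dgcr8 lies between 234 and 392 CPM in the 4 deficient libraries and between 70.5 and 91.2 in the 4 intact ones, while Mir1306 is at 0 in Dgcr8 KO.

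Few genes moved with the class, and those that rose were mainly miRNA genes and other transcripts that are not protein-coding. At an adjusted p under 0.05 in edgeR's quasi-likelihood test, 82 genes rose (0.5% of those tested) and 153 fell (0.934%), 1.43% in all, while 2663 had an unadjusted p under 0.05. Of the 82, 33 were annotated miRNA genes, 18 were other long transcripts and 31 were protein-coding. Whatever the test, the 4 deficient libraries lay above the 4 intact ones in 277 genes (1.69%) and below them in 258 (1.57%). In 64 of the 82 (0.391% of genes tested) every deficient library lay above every intact one, and these were all 33 miRNA genes, all 18 long transcripts and 13 protein-coding genes. Of the 153 that fell, 151 were protein-coding, and the classes did not overlap in 69 (0.421%). More genes passed between the genotypes within a class: 2525 genes (15.4%) passed the test between Drosha KO and Dgcr8 KO and 2887 (17.6%) between Ago1_2 KO and WT. With genotype as a random block (consensus correlation within genotype 0.576), no gene passed in limma-voom (0 higher and 0 lower, 202 at an unadjusted p under 0.05). This block allows libraries of 1 genotype to be alike, but it does not reduce the data to genotypes alone. With 1 mean per class and no block, which counts libraries of 1 genotype as independent, edgeR called 25 higher and 2 lower. With 1 library left out, the counts ran from 41 higher and 17 lower without the first Dgcr8 KO library to 763 and 751 without the first WT library. The 25 called with 1 mean per class were 18 miRNA genes, 6 other long transcripts and 1 protein-coding gene, all among the 64.

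**Figure D2:**
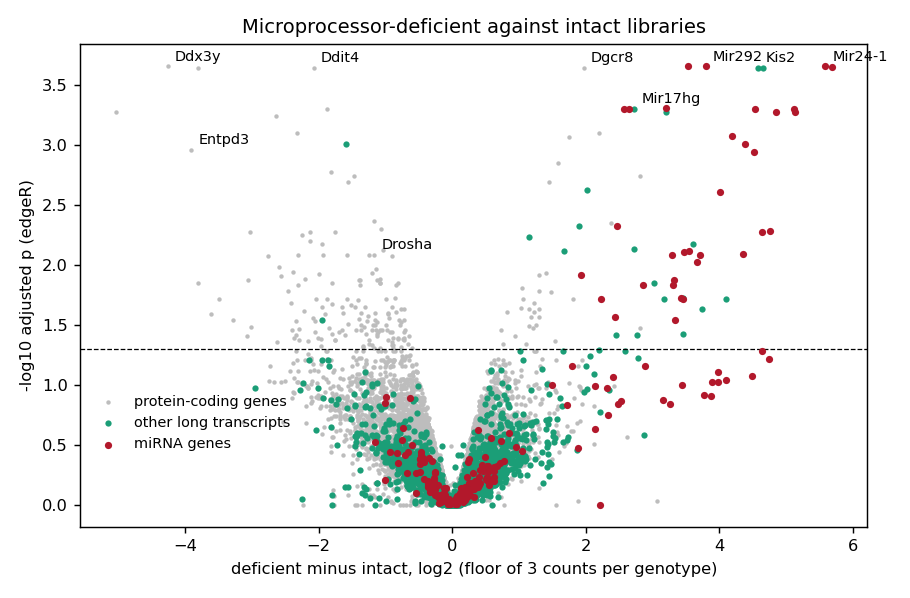
Each point is a gene: the x axis is the log2 difference of deficient minus intact (each genotype given at least 3 counts), the y axis is minus log10 of the edgeR adjusted p, and the dashed line is 0.05. Red points (miRNA genes) and green points (other long transcripts) make up 33 and 18 of the 82 genes above the line on the right, and grey points (protein-coding genes) make up 151 of the 153 on the left.

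Of 2202 miRNA genes annotated in the table, 795 had counts and 216 passed the filter, of which 33 (15.3%) rose and 0 fell. The other rise rates were 0.5% over all genes tested, 0.227% over protein-coding genes and 0.708% over other long transcripts. All 33 were among the 163 tested genes with a Mir symbol (20.2%), and none among the 53 with another symbol. A gene can pass the filter only through the class in which it is high, so the genes that reached it in the intact libraries alone were counted too. These were 146 miRNA genes, of which 9 rose (6.16%), beside 45 of 15695 genes of all kinds (0.287%). The other 24 raised miRNA genes were tested only through the deficient libraries. The summed level of all annotated miRNA genes did not pass a test (log2 -0.0939, exact permutation p 0.8, 4 against 4 libraries). Its largest part was Gm26377, a predicted gene within an exon of the protein-coding gene Eef1a1. Reads of that mRNA may have been counted in it, so the sum does not measure miRNA transcripts alone. Without Gm26377 the difference was -0.023 (exact permutation p 0.886). Among the 33, 4 had 0 counts over the 4 intact libraries, 8 had 1 to 3 counts and 21 had more.

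The 33 genes fell into 12 genomic clusters (neighbours on 1 strand within 10 kb). The clusters described here are those with a raised gene, so the share of their genes that rose is a description. The miR-290 cluster, the main miRNA cluster of mouse embryonic stem cells, lies on chromosome 7 from 3218626 to 3220841, and 7 of its 7 tested genes rose. Its summed hairpin level was 77.9, 81.45, 151.5 and 116.5 CPM against 13.65, 14.3, 11.5 and 19.2. All deficient libraries were above all intact ones, and both Drosha KO libraries were above both Dgcr8 KO libraries. Within the cluster, Mir292 had the largest difference, 3.78 ± 0.25 (log2, SE; edgeR adjusted p 0.00022), with 10.1 to 20.8 CPM in the deficient libraries against 1.03, 1.27, 1.35 and 0.822. Mir295 had the smallest, 2.29 ± 0.38 (edgeR adjusted p 0.019), from 18.5, 13.9, 25.0 and 15.1 CPM against 3.50, 2.77, 1.75 and 6.72.

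The oncogenic miR-17 to 92 cluster and its X-linked paralogue rose in the same libraries. On chromosome 14 (115043671 to 115044506), 6 of 6 hairpins rose, and their sum was 15.5, 12.7, 22.4 and 11.98 CPM against 0.875, 0.374, 0.4515 and 0.242. Mir20a, printed above, had 2.74, 2.67, 3.29 and 2.48 CPM in the deficient libraries and 0.0796, 0, 0.0564 and 0.0484 in the intact ones, a ratio of 53.15 between the summed counts of the classes, scaled to library size. On the X chromosome (52741693 to 52742567), 6 of 6 hairpins rose, from Mir363 at 1.89 ± 0.28 (edgeR adjusted p 0.012) to Mir20b at 6.19 ± 0.55 (edgeR adjusted p 0.00098). The fitted value for Mir20b depends on the 0 counts in Ago1_2 KO, and with each genotype given at least 3 counts it is 4.39. The summed X-linked hairpins were 15.1, 16.2, 26.55 and 21.6 CPM against 1.23, 2.32, 3.27 and 2.22.

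Hairpins of the Mir23b cluster on chromosome 13 (63300484 to 63301275) rose by some of the largest ratios. Mir24-1 had 4.64 to 13.8 CPM in the deficient libraries against 0.239, 0.2245, 0.0564 and 0.145. The ratio of summed counts was 50.8, with a log2 difference of 5.55 ± 0.35 (SE; edgeR adjusted p 0.00022). Mir27b had 506 counts in the deficient libraries and 9 in the intact ones, a ratio of 55.3, the largest among the miRNA genes with more than 3 intact counts. Mir23b rose too, with 293 and 7 counts.

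Smaller groups rose as well. The let-7 hairpins Mirlet7a-1 (109 and 0 counts, at least 35.8-fold higher against a floor of 3 counts over the class) and Mirlet7f-1 (82 and 0 counts, at least 26.9-fold) rose, and Mirlet7d of the same cluster did not pass (2.38, edgeR adjusted p 0.086). Mir29a had 234 and 0 counts, at least 76.8-fold, with 0.422 and 0.635 CPM in Dgcr8 KO and 7.77 and 3.06 in Drosha KO. Mir15a had 91 and 0 counts, at least 29.9-fold. Mir181c, Mir181d, Mir221 and Mir301b each had 1 to 3 intact counts: the ratio for Mir181d was 32.1 (95% binomial interval 10.7 to 159, counting error only), and for Mir221 it was 65.0 (11.3 to 2604). Mir101a (0.317, 0.635, 3.06 and 5.04 CPM against 0.119, 0.0748, 0.282 and 0.0484), Mir298 and Mir296 completed the set.

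**Figure D3:**
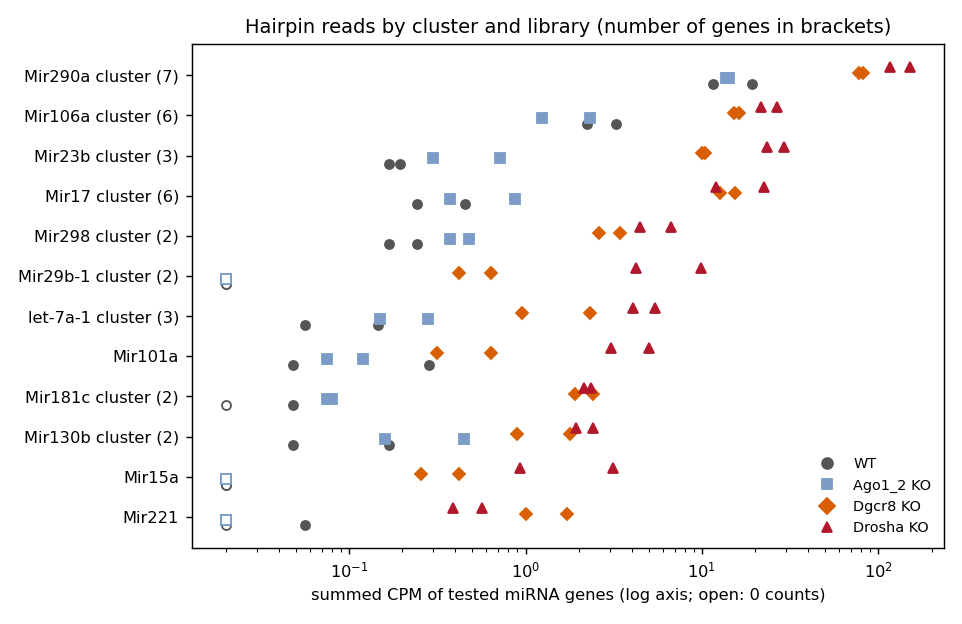
The x axis (log scale) is the summed CPM of the tested miRNA genes of each of the 12 clusters, 1 row per cluster with the number of genes in brackets, and each symbol is a library; open symbols at the left edge had 0 counts. In all 12 rows the 4 deficient libraries lie to the right of the 4 intact ones, for the miR-290 cluster at 77.9 to 151.5 against 11.5 to 19.2 CPM.

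The calls are given by the place in which the miRNA genes lie, with no test, since neighbours share a transcript and many genes were tested only through the deficient libraries. Of 27 tested Mir genes outside any annotated longer gene 16 rose, in 5 of their 12 clusters, and of 19 in an exon of a long transcript that is not protein-coding 9 rose, in 3 of 9 clusters. Of 44 in an exon of a protein-coding gene 2 rose, in 1 of 42 clusters, of 24 partly in such an exon 0 rose, and of 37 in an intron of one 4 rose. Hairpins that rose had a median GC content of 46.3% (30 with a RefSeq hairpin) and a median length of 82.5 bases, against 54.5% and 79.0 bases (113 hairpins) for those that did not. Lower GC content also went with a higher log2 difference over 16315 genes of all kinds (Spearman rho -0.366). Of 5 tested genes on the list of miRNAs made without the Microprocessor 0 rose, for example Mir877 at 0.36 ± 0.41 and Mir702 at -0.16 ± 0.27 (log2, SE). Of all tested Mir genes 20.2% rose, and of those in an intron of a protein-coding gene 10.8%. With these shares, 5 genes are too few to tell the list from other Mir genes. Mir668 of that list, with 0 counts in the first Drosha KO library, came nearest to the threshold (5.39 ± 1.13, edgeR adjusted p 0.053), and it lies in the domain described next. The 19 tested hairpins of the imprinted Meg3 to Mirg domain of chromosome 12 also had 0 calls. Their sum was 48.1 and 35.01 CPM in Dgcr8 KO and 40.9 in the second Drosha KO library, against 6.49 to 11.45 in the intact libraries, and 0.17 in the first Drosha KO library. That library also stood apart in the long transcripts of the domain, with 0.851 CPM of Meg3 and 0.34 of Mirg, against 352 and 140 in the second Drosha KO library.

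Of the 18 long transcripts that rose, 12 overlap a miRNA gene on their strand, and the other 6 lie 4372 to 19472 bases from the nearest one. These were 12 of the 61 tested long transcripts with such an overlap and 6 of the 2480 without. Of the latter, 107 lie within 20 kb of a miRNA gene, of which 6 rose (5.61%), and of the 2373 with none within 20 kb 0 rose. Of the long transcripts that reached the filter in the intact libraries alone, 5 of 46 with an overlap rose (10.9%) and 1 of 2157 without (0.0464%). The other 12 raised ones, 5 of them without an overlap, were tested only through the deficient libraries. By place, 8 of 29 with a miRNA gene within an exon rose, 4 of 11 with one partly in an exon, and 0 of 15 with miRNA genes in introns only. On the list of host transcripts, 4 of 12 tested members rose (Mir17hg, Kis2, Mir22hg and Lncpint) and 0 fell, beside 0.5% raised over all genes. The list median was 1.52 (log2), beside -0.0178 over all genes. Kis2 and Lncpint were tested only through the deficient libraries, so the filter sets part of this share and median. Lncpint is on the list although no annotated miRNA gene overlaps it on its strand. The summed level of the 17 host transcripts in the table did not pass a test (log2 -0.0531, exact permutation p 0.971, 4 against 4 libraries), and it is dominated by Rian, which had 1.30 CPM in the first Drosha KO library. Without that library the sum differed by 0.582 (exact permutation p 0.0857).

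Mir17hg, the transcript that carries the miR-17 to 92 hairpins (chromosome 14, 115042879 to 115046727, plus strand), stood at 121, 112, 175.5 and 90.9 CPM against 19.7, 16.5, 14.05 and 21.3. The means were 125 ± 36.0 (SD, n = 4) and 17.9 ± 3.24 CPM (n = 4), a log2 difference of 2.80 ± 0.23 (SE; edgeR adjusted p 0.0005). Its 6 hairpins hold 536 bases of 3536 exon bases. The density of reads in the hairpins over that in the transcript was 0.844, 0.746, 0.842 and 0.87 in the deficient libraries and 0.293, 0.15, 0.212 and 0.075 in the intact ones. The classes did not overlap, with a log2 difference of 2.25. The ratio was chosen after the hairpins' calls were seen, so it is a description with no test, and reads that reach over a hairpin's edge or lie on both genes may have been counted in either way.

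Kis2, at the 5′ side of the X-linked cluster (52742563 to 52744960, minus strand), stood at 8.81, 8.32, 17.6 and 11.2 CPM in the deficient libraries against 0.478, 0.374, 0.677 and 0.29, with no overlap and a log2 difference of 4.59 ± 0.33 (SE; edgeR adjusted p 0.00023). The protein-coding gene 2010111I01Rik, whose locus on chromosome 13 (62964893 to 63326096, plus strand) holds Mir23b, Mir27b and Mir24-1, rose less than its hairpins. It stood at 69.4, 55.2, 107 and 88.1 CPM against 24.8, 20.6, 29.7 and 38.8, a difference of 1.48 ± 0.16 (edgeR adjusted p 0.002), beside 4.64 to 5.69 for the hairpins (each genotype given at least 3 counts). Dleu2, the long host of Mir15a, rose by 1.19 ± 0.15 on the log2 scale (edgeR adjusted p 0.0059), from 25.2 to 31.9 CPM in the intact libraries to 61.6 to 82.04 in the deficient ones. Mir22hg stood at 10.3, 12.7, 8.28 and 7.44 CPM against 2.51, 1.65, 3.89 and 3.92. E130102H24Rik, which holds Mir101a, rose by 1.99 ± 0.22, and 6720427I07Rik, which holds the let-7 hairpins, by 1.96 ± 0.24 (edgeR adjusted p 0.0024 and 0.0047). Between raised hairpins and the tested genes that overlap them, 17 pairs in 8 genes were compared with each genotype given at least 3 counts. The hairpin's log2 difference was the larger in 17, by 0.534 to 4.24 (median 2.12). The pairs were picked for the hairpin's call, so no test is given. Pairs of a raised longer gene and a hairpin that did not pass were compared with each genotype given at least 3 counts. The hairpin's difference was then the smaller for Mir30d under Gm37296 (by 2.86) and Gm20732 (by 1.82) and Mir29b-1 under Gm27019 (by 1.25). So it was for Mir1306 under Dgcr8 (by 2.96), and it was the larger for Mirlet7d and Mir130b. Mir30d (40 and 0 counts) and Mir29b-1 (66 and 0) had no intact reads, so this floor sets their differences and the order is not settled. For Mir30d the fitted difference was 5.47, above the 4.67 of Gm37296 and below the 7.21 of Gm20732. For Mir29b-1 it was 3.97, below the 7.13 of Gm27019, but with an SE of 7300. The value of Mir1306 rests on the absence of its reads in Dgcr8 KO, while Drosha KO held more of it than the intact libraries. The sources used here do not say how a read on both genes was counted.

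**Figure D4:**
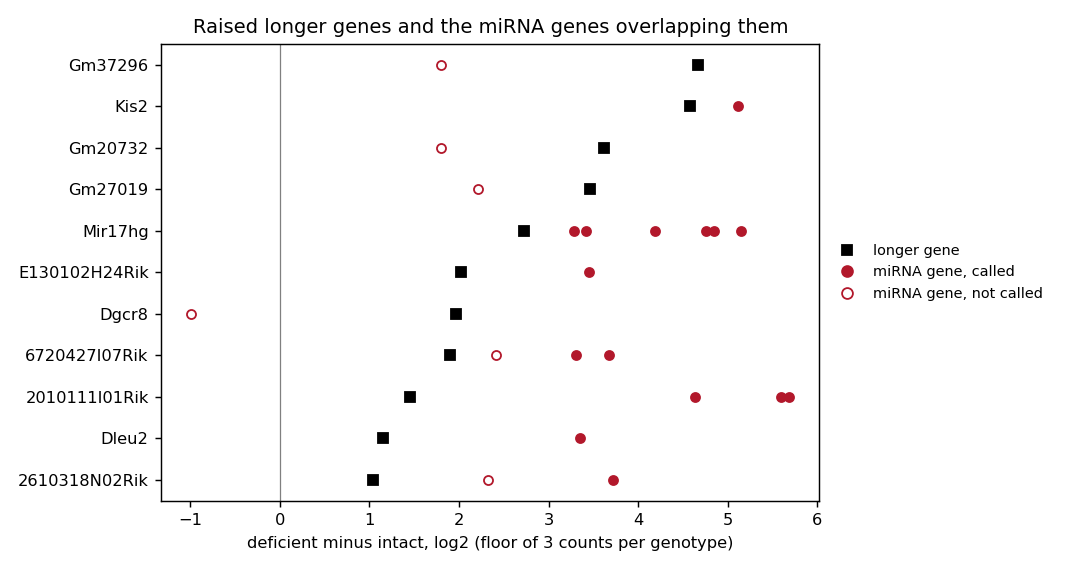
The x axis is the log2 difference of deficient minus intact (each genotype given at least 3 counts) for the raised longer genes that overlap a tested miRNA gene (squares, 1 row each) and for those miRNA genes (circles, filled where called). In the rows of Mir17hg, 2010111I01Rik, Dleu2 and E130102H24Rik every circle lies to the right of its square, while Mir1306 in the row of Dgcr8 (at -0.99), Mir30d in the rows of Gm37296 and Gm20732 and Mir29b-1 in the row of Gm27019 lie to the left. Mir30d and Mir29b-1 had 0 intact counts, so the floor sets their places, and Mir1306 had no reads in Dgcr8 KO.

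Other raised long transcripts were named after their values were seen. Gm37296, whose exon partly overlaps Mir30d, stood at 5.86, 5.02, 14.01 and 13.9 CPM against 0.557, 0.15, 0.282 and 0.29, a difference of 4.67 ± 0.35 (edgeR adjusted p 0.00023), and its neighbour Gm20732 had 89 and 0 counts. Nespas, an imprinted antisense transcript that lies 13652 bases from Mir298, stood at 13.9, 10.4, 22.6 and 11.8 CPM against 2.82, 2.84, 0.959 and 0.726. A330023F24Rik, at Mir29b-2, had 320 and 20 counts, and 4833445I07Rik, at Mir191, had 166 and 25. Lncpint had 173 and 3 counts, a ratio of 56.8 (95% binomial interval 19.1 to 278), and its nearest miRNA gene on the same strand, Mir29b-1, lies 19472 bases away. Its 2 classes did not overlap, yet Dgcr8 KO held 0.422 and 0.127 CPM and the first Ago1_2 KO library 0.119.

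Protein-coding genes rose rarely. Of 141 with a miRNA gene within an exon 2 rose (Dgcr8 and 2010111I01Rik), of 487 with miRNA genes in introns only 4 rose, and of 12927 with none overlapping 25 rose (0.193%). On the list of reported mRNA substrates of the Microprocessor, 1 of 4 tested members rose, and it was Dgcr8. Mbnl1, a splicing factor, was at 0.55 ± 0.23, Nfib, a transcription factor, at 0.44 ± 0.20, and Neurod1, a neuronal transcription factor, at -2.21 ± 0.51 (log2, SE), and none of the 3 passed (edgeR adjusted p 0.28, 0.30 and 0.077). The 9 raised protein-coding genes with no overlap between classes and no miRNA gene within 20 kb are listed after their values were seen. Among these, Tgfbr3, a TGF-beta co-receptor, stood at 59.7, 47.01, 18.4 and 19.8 CPM against 8.32, 8.01, 9.59 and 12.6 (1.75 ± 0.17, edgeR adjusted p 0.00087). Mep1b, a metalloprotease, stood at 53.5, 60.04, 17.8 and 11.4 CPM against 9.83, 8.38, 3.10 and 4.74. Both were higher in Dgcr8 KO than in Drosha KO (log2 -1.48 and -1.96 for Drosha minus Dgcr8, edgeR adjusted p 0.0044 and 0.0035). The others were Adgrl2, Rora, Peg10, Impact, Celf2, Dtna and Gm18336, at 0.87 to 2.43.

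The genes that fell were nearly all mRNAs, and many of them differed between the intact genotypes as well, in either direction. In the test between Ago1_2 KO and WT, which uses the same intact libraries, 74 of the 153 passed (background 17.6%). Among the 69 without overlap 21 passed, 17 of them lower in Ago1_2 KO than in WT. Among the 84 with overlap 53 passed, 18 of them lower in Ago1_2 KO. Ddit4, a stress-induced inhibitor of mTORC1, stood at 11.8, 9.403, 9.19 and 9.65 CPM in the deficient libraries, 22.5 in both Ago1_2 KO libraries and 87.1 and 72.9 in WT. The classes did not overlap, WT was the highest, and the difference was -2.08 ± 0.15 (log2, SE; edgeR adjusted p 0.00023). Without WT in the contrast it was -1.17 (edgeR adjusted p 0.0058). P2rx3, an ATP-gated channel, stood at 0.58, 0.254, 0.284 and 0.581 CPM against 1.47, 1.42, 47.7 and 8.61, and Slc7a11, a cystine transporter, at 0.686, 0.445, 0.454 and 0.504 against 1.87, 0.748, 21.3 and 4.45. In both the fall lost the test without WT in the contrast (edgeR adjusted p 0.22 and 0.29). Inhbe, an activin subunit, and Stc2, a secreted glycoprotein, lost it too (edgeR adjusted p 0.12 and 0.078). Without Dgcr8 KO in the contrast Slc7a11, Inhbe and Stc2 also missed the threshold (-3.1, -2.72 and -1.84, edgeR adjusted p 0.081, 0.095 and 0.051). P2rx3 kept its call there (edgeR adjusted p 0.046).

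Klk1, Khdc3, Tspan15 and Glipr2 kept their call without WT in the contrast. Without Dgcr8 KO in the contrast Klk1 and Glipr2 kept it, while Khdc3 and Tspan15 missed the threshold with differences of -1.28 and -1.12 (log2; edgeR adjusted p 0.082 and 0.11). Klk1, a tissue kallikrein, stood at 2.16, 2.16, 2.27 and 2.67 CPM against 8.197, 8.61, 7.39 and 7.35, with a difference of -1.76 ± 0.22 (edgeR adjusted p 0.0053). Khdc3, an oocyte and stem cell protein that guards genome stability, stood at 3.90, 3.56, 5.22 and 3.64 CPM against 13.1, 8.46, 11.0 and 10.2 (-1.40 ± 0.24, edgeR adjusted p 0.023). Tspan15, a tetraspanin, stood at 3.38, 3.37, 3.75 and 6.20 against 13.2, 10.6, 9.54 and 10.3 (-1.41 ± 0.23, edgeR adjusted p 0.020). Glipr2 stood at 4.49, 5.21, 8.45 and 16.2 against 25.7, 28.9, 65.4 and 52.1, and within the deficient class it was higher in Drosha KO (1.36, edgeR adjusted p 0.022). Serpinf1, a secreted serpin, was also higher in Drosha KO (2.33 and 2.60 CPM) than in Dgcr8 KO (0.369 and 0.635), and without Dgcr8 KO its fall missed the threshold (-1.66, edgeR adjusted p 0.13). Chga, Adgrd1, Atp2b2, B4galnt2 and Rhox6 completed the 15 lowered genes named by the rule, at -1.82 to -3.29. Of these, Adgrd1 kept its call without WT and without Dgcr8 KO. Chga, Atp2b2 and B4galnt2 lost theirs without WT (-1.20, -2.22 and -1.34, edgeR adjusted p 0.062, 0.096 and 0.14), and Atp2b2 and Rhox6 lost theirs without Dgcr8 KO (-2.56 and -1.89, edgeR adjusted p 0.13 for both). Rhox6 kept its call in 9 of 23 alternatives.

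**Figure D5:**
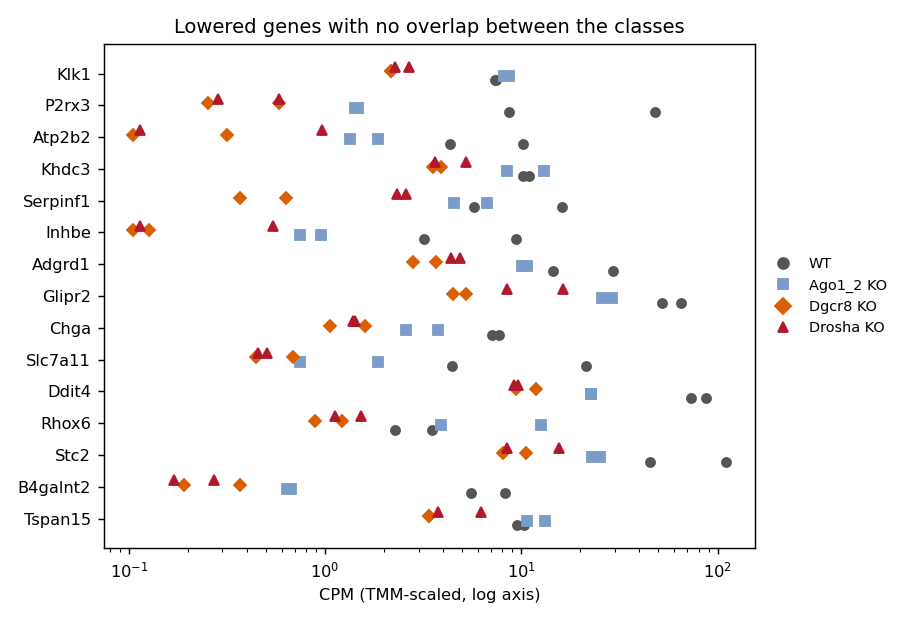
The x axis (log scale) is CPM, each row is 1 of the 15 lowered genes named by the rule, and each symbol is a library. In every row the deficient symbols lie left of the intact ones; for Ddit4, P2rx3 and Slc7a11 WT lies furthest right, and for Klk1 the Ago1_2 KO and WT libraries lie together at 7.35 to 8.61 CPM.

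Many called genes differed between the deficient genotypes too, in a test that uses the same deficient libraries. Of the 153 lowered genes, 74 were also higher in Drosha KO than in Dgcr8 KO (background 9.67%) and 5 were lower (background 5.74%). Of the 82 raised genes, 12 were higher in Drosha KO than in Dgcr8 KO and 13 were lower. Among the 64 raised genes without overlap, 11 were higher in Drosha KO and 3 were lower. The Y-linked genes Ddx3y, Uty and Eif2s3y were among the genes that fell: all 3 had 0 counts in both Dgcr8 KO libraries, while Drosha KO held 31.4 to 116 CPM and the intact libraries 16.6 to 106. Mest, which holds Mir335 in an intron, rose by 2.86 ± 0.31 (edgeR adjusted p 0.0018), from 1.75 to 19.2 CPM in the intact to 16.9 to 60.5 in the deficient libraries, which overlap. Log2 differences also followed the GC content of the transcript (Spearman rho -0.366 over 16315 genes, a description across genes of the same 8 libraries). With a GC offset all 33 miRNA genes, all 18 other long transcripts and 52 of the 69 lowered genes without overlap kept their call.

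The lists of targets gave no call in either direction. Of the reported targets of the miR-290 and miR-302 family 0 of 25 tested members passed, of let-7 targets 0 of 26 and of miR-17-92 family targets 0 of 20, with medians of 0.0959, 0.156 and 0.0782 (log2). Among these, Cdkn1a, a cell cycle inhibitor targeted in stem cells, stood at 148 to 168 CPM in the deficient and 194 to 232 in the intact libraries (-0.44 ± 0.12, edgeR adjusted p 0.13). Lats2, a Hippo kinase, was at 0.84 ± 0.28 (edgeR adjusted p 0.18). The contrast sets Dgcr8 KO and Drosha KO against a class that includes the Argonaute mutant.

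Of the 26 genes of the ATF4 and amino acid stress list, 12 were lower (6 without overlap, median -0.92) and 0 higher, beside 0.934% lower over all genes. They include Ddit4, Trib3, Chac1, the serine synthesis enzymes Phgdh and Psat1, the mitochondrial folate enzymes Mthfd2 and Shmt2, and the amino acid transporters Slc7a5 and Slc7a11. In 11 of the 12 Ago1_2 KO was also lower than WT in the test (background 7.38%). Phgdh shows it: the deficient libraries held 58.7, 57.3, 36.7 and 56.7 CPM, Ago1_2 KO 45.8 and 60.1 and WT 232 and 260. Its difference without WT in the contrast was -0.0221 (edgeR adjusted p 0.97). Trib3 and Chac1 also lost the test without WT (edgeR adjusted p 0.062 and 0.29), and Atf5, the 1 member that did not differ between Ago1_2 KO and WT, stood at 21.9, 19.3, 36.7 and 33.4 CPM against 51.5, 56.3, 45.2 and 85.0.

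Most of the remaining lists gave few calls or none. Of 24 glycolysis genes 3 were lower (12.5%, beside 0.934% over all genes), with a list median of -0.301. Slc16a3, a lactate exporter, and Slc2a1, a glucose transporter, had no overlap (-1.47 ± 0.25 and -0.68 ± 0.13, edgeR adjusted p 0.021 and 0.041), and Hk1 did. All 3 calls ended without Dgcr8 KO in the contrast (Slc16a3 -0.97, Slc2a1 -0.49 and Hk1 -0.297, edgeR adjusted p 0.19, 0.22 and 0.55), and that of Slc2a1 also without WT (-0.56, edgeR adjusted p 0.076). Of the 20 naive pluripotency genes, the 29 interferon and RNA sensing genes, the 24 snoRNA host genes and the 23 genes of the two-cell-like state none passed. Of 17 formative and primed genes Zic2 rose (1.08 ± 0.18, edgeR adjusted p 0.019) with overlapping classes, and without WT in the contrast its difference was 0.0215 (edgeR adjusted p 0.97). Of 23 Microprocessor subunits and cofactors only Dgcr8 and Drosha passed, and of 28 genes of miRNA export, dicing and silencing only Ago2 did. Among 15 long nuclear noncoding RNAs 1 rose (Lncpint), and among the marker lists Krt7 of 5 tested trophectoderm markers fell, a call that ended without Dgcr8 KO (-0.66, edgeR adjusted p 0.53).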

How the data were processed

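Polyadenylated RNA was measured in 8 libraries. The authors' deposited table holds counts of reads per gene (whole numbers, 0 unused count columns). Per the labels the libraries were reverse-stranded, and per the submitters' processing notes reads were aligned with STAR 2.4.2a to mm10 (GRCm38); the sources used here name no counting tool, strand setting or annotation release. The deposited counts gave Mir290a 906 reads and Mir290b, which lies inside it on the opposite strand, 0.

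Identifiers were matched without version to GENCODE M21 (GRCm38; 47224 of 47643, 39106 with the same version). In edgeR 4.0.16 (R 4.3.3), a mean for each genotype was estimated from all libraries (filterByExpr by genotype, TMM, robust quasi-likelihood), and the mean of Dgcr8 KO and Drosha KO was set against that of WT and Ago1_2 KO. Calls were made at 0.05 after Benjamini-Hochberg adjustment over 16388 genes. CPM were computed with TMM-scaled library sizes. Ratios are of pooled CPM, with a floor of 3 counts over a class and a 95% exact binomial interval where a class held 1 to 3 counts; they cover counting error only.

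Named genes were the targeted genes and Mir1306; the 15 per direction with the largest smallest gap between genotype means, without overlap, at 5 CPM or more in 1 genotype and without a predicted-gene symbol; all called miRNA genes and listed hosts; up to 6 members of each other list by p-value; the 3 largest overlapping calls per direction; and up to 6 genes with exonic and with intronic miRNA genes. The members, lists and tests were chosen with earlier results of these data known. Simulated data over 16014 genes gave 59.2% recovery of 98 genes changed 2-fold and 94% of 100 changed 4-fold, with 13 false calls. The simulated genotypes of a class did not differ from each other, unlike those of the data. These figures therefore do not cover calls that arise from such differences. Alternatives used DESeq2 1.42.0, limma 3.58.1, other filters and scalings, blocks, a GC offset and left-out libraries or genotypes. Python 3.11.15, numpy 2.4.6, pandas 2.3.3 and matplotlib 3.10.9 were used for the rest.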

Additional observations from a re-analysis of the deposited data

Results flagged for a closer look

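Differences between the deficient genotypes. Several genes of the report also differed between Drosha KO and Dgcr8 KO in edgeR's test of that difference (log2, Drosha KO minus Dgcr8 KO). Higher in Drosha KO were Mir24-1 (1.28), Mir291a (1.23), Mir290a (1.40), Mir29a (3.35), Mirlet7a-1 (3.15), Mir101a (3.10), E130102H24Rik (1.29), Lncpint (3.78), Serpinf1 (2.30), Glipr2 (1.36), Hk1 (1.32), Krt7 (2.31) and Rassf4 (2.89). Lower were Drosha (-2.004), Vldlr (-1.07), Psat1 (-0.76), Arhgap20 (-2.76) and Cttnbp2 (-1.29). Ddx3y (13.9), Uty (12.5) and Eif2s3y (13.5) had 0 counts in Dgcr8 KO, so their fitted values depend on the prior count and are no bounds.

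Single libraries apart from the other 3 of their class, by a gap test that flags about 1 in 20 groups by chance. In the intact class these were Ago2 in the first WT library (464 CPM), P2rx3 in the same library (47.7), Mir290a in it (1.24), Rhox6 in the first Ago1_2 KO library (12.7), Mir23b in that library (0.279) and Lncpint in it (0.119). Others rest on 1 or 2 counts: Mir18 (0.0796) and Mir19a (0.0398) in the first Ago1_2 KO library, Mir221 in the first WT library (0.0564) and Mir181c in the second (0.0484). In the deficient class they were Inhbe (0.543) and Tspan15 (6.20) in the second Drosha KO library and Phgdh in the first (36.7).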

How the results depend on the processing

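Each class holds 2 genotypes, and the labels do not give the origin of the libraries. The counts of genes higher and lower (82 and 153, 235 in all) were 211 and 456 (667) with the DESeq2 Wald test, 436 and 793 (1229) with no filter on low counts, 37 and 10 (47) with a 2-fold limit, 25 and 2 (27) with 1 mean per class and 0 and 0 with genotype as a random block. With 1 genotype left out of the contrast they were 143 and 99 without Dgcr8 KO, 653 and 1172 (1825) without Drosha KO, 176 and 874 (1050) without WT and 486 and 608 (1094) without Ago1_2 KO. With 1 library left out they ranged from 41 to 763 higher and from 17 to 751 lower (58 to 1514 in all), the lowest without the first Dgcr8 KO library and the highest without the first WT library; without the second Drosha KO library they were 190 and 388, without the second Dgcr8 KO library 44 and 22, and without the first or second Ago1_2 KO library 41 and 34 or 46 and 39. Raised miRNA genes (33) numbered 66 with no filter, 18 with 1 mean per class, 0 with the random block and 22 to 46 with 1 library left out. The comparison of Drosha KO with Dgcr8 KO had 389 calls, and that of Ago1_2 KO with WT 493, with a 2-fold limit, 4431 for the latter with no filter, and 320 to 3900 and 556 to 4955 with 1 library left out. The cause of these shifts was not tested.

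The summed CPM of all annotated miRNA genes (log2 -0.0939, exact permutation p 0.8) ranged from -0.185 to 0.0987 with 1 library left out and turned positive without the second WT library. The sum of host transcripts ranged from -0.331 to 0.582, and it was 0.313 without Rian, its highest member, 0.582 without the first Drosha KO library and 0.075 without the second Ago1_2 KO library. Without Dgcr8 KO in the contrast Ddx3y (0.852) and Uty (0.585) turned positive. The class difference in density ratio at Mir17hg (log2) was between 1.89 and 2.51 with 1 library left out. The labels tie replicate numbers to no shared batch or day. Correlations of deviations between same-numbered libraries were 0.0963 to 0.245, with 5 of 6 over 0.1, short of the limit of 0.1 in every pair that was set for treating the numbers as pairs. With the replicate block 126 genes were higher and 216 lower, and all 33 miRNA genes kept their call.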

Other observations

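The values of 3 raised protein-coding genes are given next; they were picked after their values were seen, so no test is given. Peg10, an imprinted gene needed for the placenta, stood at 156, 163, 58.9 and 41.05 CPM in the deficient libraries against 39.5, 24.5, 12.5 and 4.64 in the intact ones. Impact, a regulator of the GCN2 kinase, stood at 372, 305, 254 and 206 CPM against 200, 151, 131 and 135. Plagl1, an imprinted zinc finger gene, stood at 321 and 231 CPM in Dgcr8 KO but at 3.86 and 4.81 in Drosha KO, below the 8.31 to 16.2 of the intact libraries, so its class call rests on Dgcr8 KO. The single most abundant annotated miRNA gene, Gm26377, had 384 to 569 CPM in the deficient libraries and 423 to 518 in the intact ones other than the second WT library, which had 1247. It lies within an exon of the protein-coding gene Eef1a1, whose reads may have been counted in it.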
